A study of Mus musculus with 9 samples.

Results

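The genes described here are 36 genes of glucose use that were chosen by name: those of glucose uptake, glycolysis, lactate production and export, glycogen synthesis and breakdown, and the pentose phosphate pathway. They were taken from a table of 57238 entries, in which the 36 names matched 37 entries because Aldoa was listed under a pair of identifiers. The second Aldoa entry held between 0 and 6 estimated reads per library and was not tested, and each of the 36 names was represented among the 15028 genes that passed the filter on low counts. The rule used no measured value, but it was written with earlier results of these data known.

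The cells, bone marrow-derived dendritic cells (BMDCs), had been cultured from the marrow of wildtype C57BL/6 mice with 20 ng/ml of the growth factor GM-CSF, and their RNA was sequenced. The mice were 8 to 10 weeks old, and the culture lasted 6 days by the labels of the libraries and 7 days by the study's methods. Exosomes are small vesicles that cells release. The control group (CTR) was left without them, the NE-treated group was given those of NIH 3T3, a line of mouse fibroblasts that are not cancerous, and the TDE-treated group was given those of tumor cells, in each case for 24 h. Each group had 3 libraries. The labels do not name the tumor line, and nothing says that the libraries of a group came from separate mice or cultures, so the p-values measure the spread between these libraries, which may be technical. GM-CSF cultures of marrow are known to hold macrophages and granulocytes beside dendritic cells.

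Cells take up glucose through transporters of the Slc2a family and trap it as a phosphorylated sugar with a hexokinase. Glycolysis splits that sugar and ends in pyruvate, which is either reduced to lactate and exported or passed into mitochondria, and pyruvate dehydrogenase kinases block the second route. The same phosphorylated sugar can be stored as glycogen or sent through the pentose phosphate pathway, which yields NADPH and ribose. Dendritic cells are known to raise glucose uptake, glycolysis and the use of their own glycogen when they are activated. RNA levels do not measure the rate of a pathway. The study itself reported slower glycolysis and less lactate in TDE-treated BMDCs, after a longer treatment than that of these libraries. How the RNA levels relate to those rates was not tested.

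The libraries held 17469782 to 21092943 estimated reads on genes. CTR replicate 1 stood apart: over all genes its log-scale correlation with the other 8 libraries was 0.827 to 0.900, against 0.941 to 0.990 among those 8. Its log ratio to the mean of all libraries went with gene length, with a Spearman correlation of -0.48 over genes, and the same measure lay between -0.23 and 0.38 in the other libraries. Among the 36 genes its level ranged from 0.334 times (Gbe1) to 4.07 times (Taldo1) the mean of CTR replicates 2 and 3. The coefficient of variation of the 36 genes had a median of 25.1% over CTR libraries, 7.93% over NE-treated and 2.63% over TDE-treated ones. The counts of called genes against CTR are therefore given with and without this library.

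Among the 36 chosen genes, most of those of glucose uptake, glycolysis, lactate handling and glycogen metabolism had higher levels in TDE-treated than in CTR BMDCs. The further genes of these pathways, given below, were called about as often as all genes. Of the 36 genes, 21 rose, none fell at the threshold of 0.05 on the adjusted p of edgeR's quasi-likelihood test, and 15 did not pass; 29 had an unadjusted p under 0.05. Among all 15028 genes tested, 16.9% were called in this comparison, 7.57% as higher and 9.34% as lower, and 34.8% had an unadjusted p under 0.05. The median log2 fold change of the 36 genes was 0.85, beside -0.05 over all genes tested. The TDE-treated libraries lay above all CTR libraries for 25 of the 36 genes and below them for 5, where 22.2% and 21.8% of all genes did so, 44.0% in all. Without CTR replicate 1, 28 of the 36 rose and 3 fell, where 34.4% of all genes were called, 16.4% as higher and 18.0% as lower. In bulk RNA a lower level in each cell and fewer cells of the type that expresses the gene cannot be told apart, and the same holds for a higher level.

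Against NE-treated BMDCs, 24 of the 36 genes were higher in TDE-treated BMDCs, none was lower and 12 did not pass, in a comparison in which 13.9% of all genes were called, 6.73% as higher and 7.21% as lower. The median log2 fold change was 1.03, beside -0.02 over all genes tested. The libraries did not overlap for 28 genes that were higher and 4 that were lower, as for 26.8% and 27.7% of all genes, 54.5% in all. Without CTR replicate 1, which enters this fit only through the shared spread, filter and scaling, 28 were higher and 3 lower, where 40.7% of all genes were called, 19.2% as higher and 21.5% as lower. The calls of Hk1, Gapdh, Pkm, Gbe1 and Pygl were lost when any TDE-treated library was left out. Both comparisons use the same 3 TDE-treated libraries, so their values are given side by side and not as independent evidence. In share of all reads on genes, the 36 genes held 1.29 to 1.43% in CTR, 1.13 to 1.25% in NE-treated and 2.27 to 2.36% in TDE-treated libraries.

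**Figure D1:**
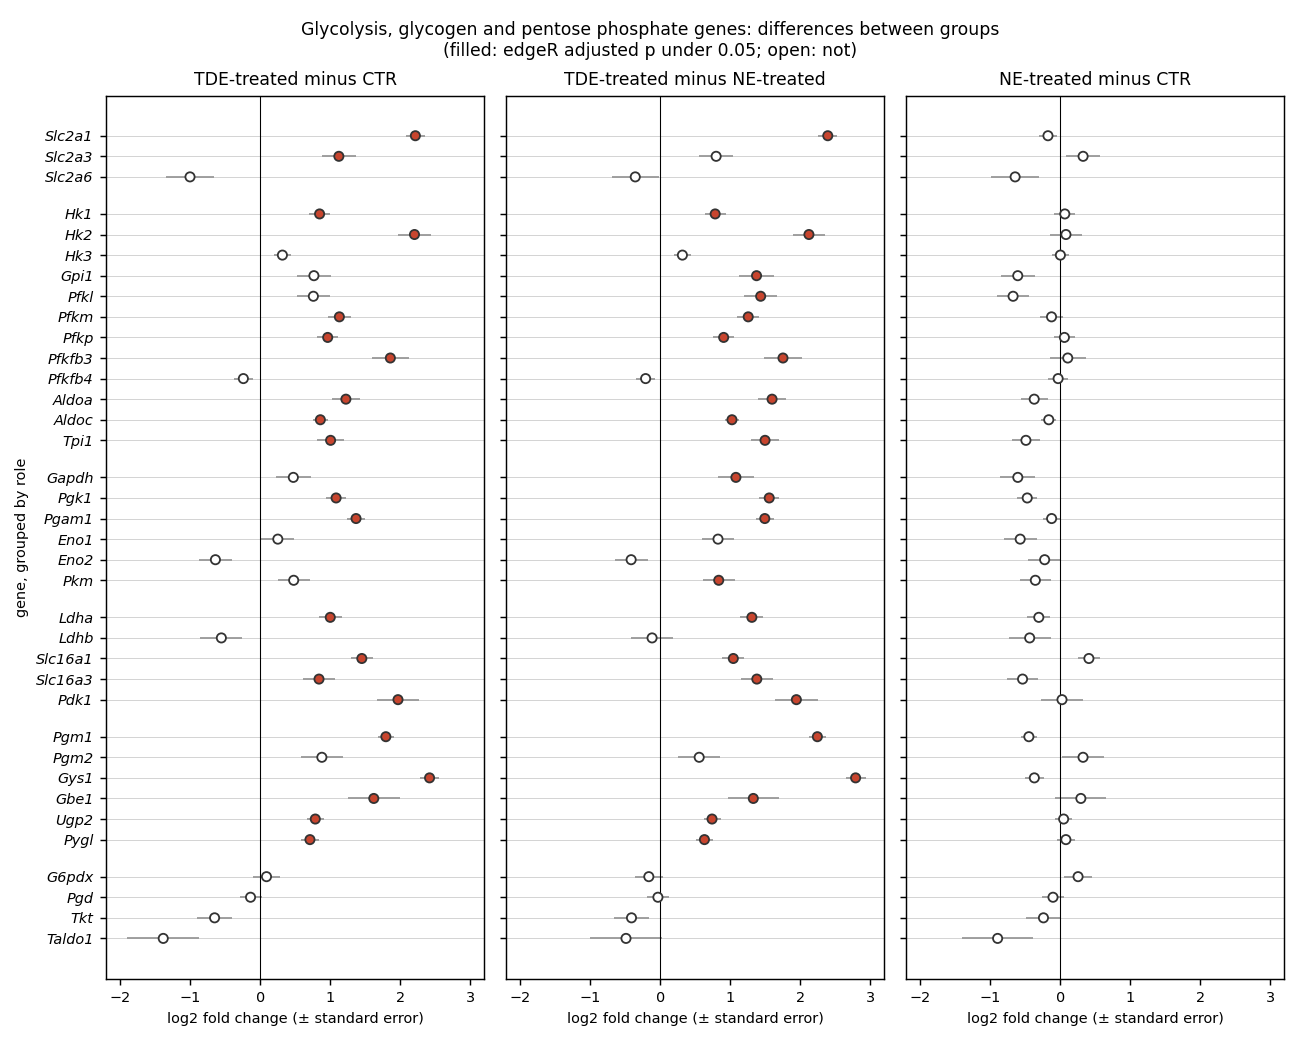
Log2 fold change (horizontal axis, with its standard error) of each of the 36 genes, grouped by role, in TDE-treated against CTR, TDE-treated against NE-treated and NE-treated against CTR BMDCs, fitted with all 9 libraries. Filled points passed an adjusted p of 0.05: 21 genes in the left panel, 24 in the middle panel and none in the right panel, and none of the 4 pentose phosphate genes at the bottom.

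The stretch before the start of each gene was searched for ACGTG and GCGTG on both strands, which are the core letters of hypoxia-response elements, and for CACGTG, the E-box, which contains ACGTG and is also counted with it. RefSeq windows (GRCm38.p6) of 250 bases before the start were found for 35 of the 36 genes, 50 windows in all. ACGTG or GCGTG lay in 38 of these 50 windows (76.0%), in 54.1% of 13148 windows of tested genes and in 38.6% of all 32851 windows. Counted by gene, 30 of 35 had a match (85.7%), against 59.8% of tested genes that had a window. CACGTG lay in 4 of the 50 windows (8.0%) and in 8.2% of those of tested genes. A match of these letters is a description of the window, windows were not matched for base composition, and neither binding nor its absence can be read from it.

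The windows of the gene with the highest log2 fold change against CTR in each role with a called gene are shown, 5′ to 3′ on the strand of the gene, with ACGTG or GCGTG and their complements in capitals. Slc2a1 (chr4:119108495-119108740, plus strand) holds a pair of matches, which begin 36 and 61 bases before the start. Hk2 (chr6:82774455-82774704, minus strand) holds 2, Pgam1 (chr19:41911621-41911870, plus strand) holds 3, Pdk1 (chr2:71872974-71873223, plus strand) holds 1 in its upstream window, and Gys1 (chr7:45434680-45434838, plus strand), whose difference was the highest of all, holds none. Where annotated exons cover more than 30 bases of a window its end is left out, 4 bases for Slc2a1 and 91 bases for Gys1. A further window of Pdk1 (chr2:71874654-71874903), which holds no match and which exons of Pdk1 cover throughout, is not shown.
Slc2a1: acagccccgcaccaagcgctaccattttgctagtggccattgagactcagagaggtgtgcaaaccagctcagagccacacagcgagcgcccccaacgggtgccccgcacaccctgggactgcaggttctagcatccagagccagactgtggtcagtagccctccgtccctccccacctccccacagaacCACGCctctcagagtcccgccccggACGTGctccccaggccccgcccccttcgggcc
Hk2: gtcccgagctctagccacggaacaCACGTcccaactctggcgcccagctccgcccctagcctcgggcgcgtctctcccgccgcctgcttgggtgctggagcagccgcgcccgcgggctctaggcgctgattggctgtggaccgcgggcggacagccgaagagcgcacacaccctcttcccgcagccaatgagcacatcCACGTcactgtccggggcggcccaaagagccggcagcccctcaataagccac
Pgam1: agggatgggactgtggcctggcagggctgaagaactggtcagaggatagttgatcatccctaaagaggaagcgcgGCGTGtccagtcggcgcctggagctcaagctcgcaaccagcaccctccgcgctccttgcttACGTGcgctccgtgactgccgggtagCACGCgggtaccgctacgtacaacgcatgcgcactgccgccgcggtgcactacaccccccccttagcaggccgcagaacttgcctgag
Pdk1: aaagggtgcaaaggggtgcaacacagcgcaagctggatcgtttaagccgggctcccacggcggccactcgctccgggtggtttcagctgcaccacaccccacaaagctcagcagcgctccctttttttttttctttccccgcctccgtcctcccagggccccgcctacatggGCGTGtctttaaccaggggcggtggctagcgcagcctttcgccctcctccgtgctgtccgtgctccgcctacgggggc
Gys1: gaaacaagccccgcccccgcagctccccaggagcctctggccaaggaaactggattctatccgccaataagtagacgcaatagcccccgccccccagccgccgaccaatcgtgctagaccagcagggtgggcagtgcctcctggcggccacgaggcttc

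Of the 3 glucose transporters, 2 rose in TDE-treated against CTR BMDCs. Slc2a1, which encodes the widely expressed transporter of basal glucose uptake, measured 62.6, 78.9 and 72.9 CPM in CTR, 63.8, 63.0 and 63.0 CPM in NE-treated and 346, 317 and 334 CPM in TDE-treated libraries, where CPM are counts scaled by library size after TMM normalization. The 3 TDE-treated libraries stood far above the other 6, which overlapped one another. Its log2 fold change was 2.22 ± 0.13 (SE), a 4.65-fold difference with adjusted p = 7.21e-05, and 2.39 ± 0.13 (adjusted p = 4.74e-05) against NE-treated BMDCs. Slc2a3, which encodes a transporter of high affinity, measured 43.3, 85.3 and 84.9 CPM in CTR, 86.9, 97.4 and 83.2 CPM in NE-treated and 149, 159 and 158 CPM in TDE-treated libraries. TDE-treated libraries were again above all others, and CTR replicate 1 was the lowest of the 9. The log2 fold change of Slc2a3 was 1.12 ± 0.25 (adjusted p = 0.0176) against CTR and 0.80 ± 0.24 (adjusted p = 0.0664) against NE-treated BMDCs, and the call against CTR was lost when any of the 3 TDE-treated libraries was left out.

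Slc2a6, a transporter found on lysosomes of myeloid cells, went the other way in level, with 275, 111 and 106 CPM in CTR, 111, 103 and 101 CPM in NE-treated and 84.2, 80.4 and 80.7 CPM in TDE-treated libraries. The TDE-treated libraries were the lowest, and CTR replicate 1 lay far above the rest. The log2 difference of -1.002 ± 0.34 against CTR did not pass (adjusted p = 0.0796). Without CTR replicate 1 it was -0.42 (adjusted p = 0.00237) against CTR and -0.37 (adjusted p = 0.00227) against NE-treated BMDCs, so that Slc2a6 was then called lower in both.

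**Figure D2:**
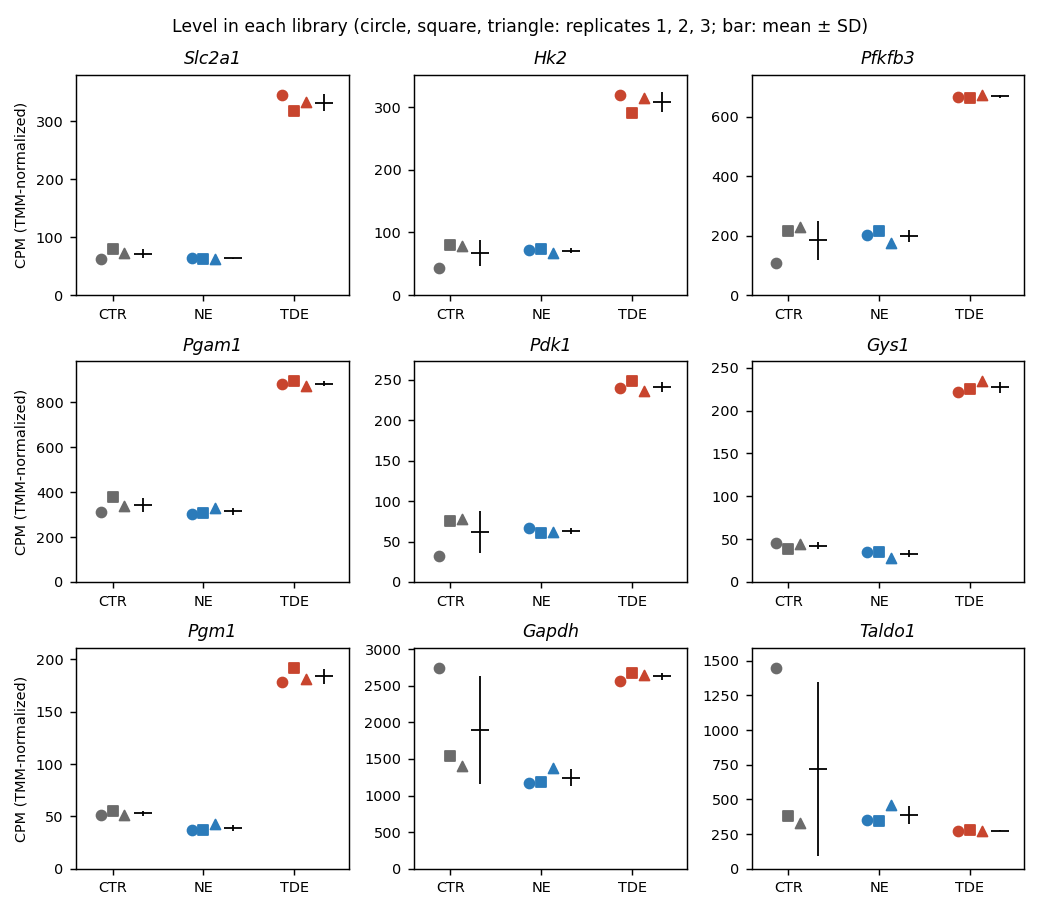
TMM-normalized CPM (vertical axes, from 0) of 9 genes in each library of CTR (grey), NE-treated (blue) and TDE-treated (red) BMDCs; circles, squares and triangles are replicates 1, 2 and 3, and the bars show mean ± SD of 3 libraries. In the top 2 rows and in Pgm1 the TDE-treated libraries lie above all others; in Gapdh and Taldo1 the circle of CTR replicate 1 lies far above the other CTR libraries.

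Of the 12 genes from hexokinase to triose phosphate isomerase, 8 rose in TDE-treated against CTR BMDCs and 10 against NE-treated BMDCs, with medians of the log2 fold change of 0.91 and 1.32. Hk2, the inducible hexokinase, measured 43.0, 79.2 and 78.5 CPM in CTR, 71.3, 74.2 and 66.8 CPM in NE-treated and 320.2, 291 and 314 CPM in TDE-treated libraries. All TDE-treated libraries exceeded all others, and CTR replicate 1 was the lowest. The log2 fold change was 2.20 ± 0.23 (adjusted p = 0.000792) against CTR, a 4.61-fold difference, and 2.12 ± 0.23 (adjusted p = 0.000862) against NE-treated BMDCs. Hk1, the constitutive hexokinase, rose by 0.85 on the log2 scale (adjusted p = 0.00767), from 93.9 ± 16.2 to 169 ± 1.82 CPM (mean ± SD, n = 3). Hk3, the hexokinase typical of myeloid cells, was at 162 ± 16.0 CPM in CTR and 201 ± 6.58 CPM in TDE-treated BMDCs and did not pass (log2 difference 0.32, adjusted p = 0.106).

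Phosphofructokinase, which commits sugar to glycolysis, has 3 genes. Pfkp, of the platelet type, rose from 91.7 ± 16.3 CPM in CTR to 179 ± 5.81 CPM in TDE-treated BMDCs (log2 0.96 ± 0.15, adjusted p = 0.00475). Pfkm, of the muscle type, rose from 11.5 ± 2.24 to 25.2 ± 1.15 CPM (log2 1.13 ± 0.16, adjusted p = 0.00297). Pfkl, of the liver type, measured 278, 159 and 154 CPM in CTR, 117, 118 and 135 CPM in NE-treated and 322, 342 and 336 CPM in TDE-treated libraries. The TDE-treated libraries of Pfkl exceeded all others, but CTR replicate 1 came close to them. Its log2 difference from CTR was 0.76 ± 0.23 with adjusted p = 0.0564, and 1.08 (adjusted p = 2.6e-05) without CTR replicate 1. Against NE-treated BMDCs Pfkl was higher by 1.43 ± 0.23 (adjusted p = 0.00521).

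The bifunctional enzymes that make and break the sugar bisphosphate known to activate phosphofructokinase parted. Pfkfb3, whose product favors synthesis of the activator, measured 109, 214 and 230.1 CPM in CTR, 202, 217 and 177 CPM in NE-treated and 668, 663 and 675 CPM in TDE-treated libraries. Each TDE-treated library was above each other library. Pfkfb3 rose by 1.86 ± 0.27 on the log2 scale (adjusted p = 0.00317) against CTR and by 1.75 ± 0.27 (adjusted p = 0.00381) against NE-treated BMDCs. Pfkfb4 was at 99.3 ± 4.14 CPM in CTR and 84.1 ± 2.42 CPM in TDE-treated BMDCs, a log2 difference of -0.24 ± 0.14 that did not pass (adjusted p = 0.241).

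Among the other genes of this stretch, Aldoa, the main aldolase outside liver, measured 1635, 1154 and 1049 CPM in CTR, 918, 922 and 1124 CPM in NE-treated and 2935, 3001 and 3026 CPM in TDE-treated libraries. It rose by 1.22 ± 0.20 (log2, adjusted p = 0.00496) against CTR, with all 3 TDE-treated libraries above the other 6. Aldoc, the aldolase known from brain, rose by 0.86 ± 0.11 (adjusted p = 0.00149), and Tpi1, which interconverts the triose phosphates, by 1.005 ± 0.20 (adjusted p = 0.0112). Gpi1, the isomerase that follows hexokinase, measured 1550.2, 842 and 811 CPM in CTR, 691, 690.1 and 721 CPM in NE-treated and 1796, 1823 and 1833 CPM in TDE-treated libraries. CTR replicate 1 of Gpi1 lay between the other CTR libraries and the TDE-treated ones. Its log2 difference was 0.77 ± 0.25 (adjusted p = 0.0676) against CTR, 1.13 (adjusted p = 5.73e-06) without CTR replicate 1, and 1.37 ± 0.25 (adjusted p = 0.0085) against NE-treated BMDCs.

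Of the 6 genes from glyceraldehyde phosphate to pyruvate, 2 rose in TDE-treated against CTR BMDCs and 4 against NE-treated BMDCs. Pgam1, the phosphoglycerate mutase, measured 312, 377 and 337 CPM in CTR, 304, 306 and 331 CPM in NE-treated and 883, 893 and 873 CPM in TDE-treated libraries. Its TDE-treated libraries lay above all others by more than the range within any group. The log2 fold change was 1.37 ± 0.13 (adjusted p = 0.000476) against CTR and 1.49 ± 0.13 (adjusted p = 0.000285) against NE-treated BMDCs. Pgk1, the kinase that yields the pathway's first ATP, rose from 881 ± 60.3 CPM in CTR to 1866 ± 50.1 CPM in TDE-treated BMDCs (log2 1.08 ± 0.14, adjusted p = 0.00213).

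Gapdh, the dehydrogenase that is often used as a reference transcript, was among the 4 that did not pass against CTR. It measured 2739, 1541 and 1403 CPM in CTR, 1165, 1189.9 and 1375 CPM in NE-treated and 2571, 2668 and 2647 CPM in TDE-treated libraries. CTR replicate 1 was above all TDE-treated libraries, while CTR replicates 2 and 3 and all NE-treated libraries were below them. The log2 difference was 0.47 ± 0.25 (adjusted p = 0.211) against CTR, 0.83 (adjusted p = 0.000176) without CTR replicate 1, and 1.08 ± 0.25 (adjusted p = 0.0246) against NE-treated BMDCs. Gapdh also has 78 near-identical copies in the table, and these held 20.5% as many reads as Gapdh in CTR replicate 1 and between 42.4 and 48.7% in the other 8 libraries. The sum of Gapdh and its copies was 3301 CPM in CTR replicate 1, 2249 and 2086 CPM in CTR replicates 2 and 3, and 3729 to 3943 CPM in TDE-treated libraries, so that the split of reads between the gene and its copies is uncertain.

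Pkm, the pyruvate kinase of most tissues, measured 2368, 1399.6 and 1346 CPM in CTR, 1288, 1249 and 1457 CPM in NE-treated and 2348, 2373 and 2403 CPM in TDE-treated libraries. The CTR replicate 1 value lay among the TDE-treated ones, and the other 5 libraries were lower. Its log2 difference was 0.48 ± 0.23 (adjusted p = 0.168) against CTR, 0.78 (adjusted p = 0.000142) without CTR replicate 1, and 0.83 ± 0.23 (adjusted p = 0.0439) against NE-treated BMDCs. Eno1, the ubiquitous enolase, had a log2 difference of 0.25 ± 0.23 (adjusted p = 0.459) against CTR, with CTR replicate 1 at 2437 CPM above the TDE-treated libraries, and 0.58 (adjusted p = 0.000496) without that library. Eno2, the neuronal enolase, was held by only 51 to 108 reads per library and did not pass in any of the comparisons (log2 difference -0.64, adjusted p = 0.0988 against CTR).

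Of the 5 genes of pyruvate and lactate, 4 rose in TDE-treated against CTR BMDCs, and 4 against NE-treated BMDCs. Pdk1, which encodes a kinase that switches off pyruvate dehydrogenase, measured 31.8, 75.9 and 77.4 CPM in CTR, 66.7, 60.2 and 61.4 CPM in NE-treated and 240.1, 248 and 236 CPM in TDE-treated libraries. All 3 TDE-treated libraries exceeded all others, and CTR replicate 1 was the lowest. The log2 fold change was 1.97 ± 0.31 (adjusted p = 0.00442) against CTR and 1.94 ± 0.31 (adjusted p = 0.00433) against NE-treated BMDCs. Ldha, the lactate dehydrogenase subunit that favors lactate formation, measured 725, 593 and 523 CPM in CTR, 463, 460.1 and 565 CPM in NE-treated and 1207, 1243 and 1233 CPM in TDE-treated libraries. It rose by 1.001 ± 0.16 (adjusted p = 0.00564) against CTR, and its TDE-treated libraries lay above the other 6. Ldhb, the subunit that favors pyruvate, was at 50.8, 25.0 and 22.4 CPM in CTR and 21.6, 21.8 and 23.2 CPM in TDE-treated BMDCs and did not pass (log2 difference -0.55 ± 0.30, adjusted p = 0.218).

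Slc16a1 and Slc16a3 encode monocarboxylate transporters, the latter being the one known for lactate export from glycolytic cells. Slc16a1 was low, at 7.1, 10.1 and 8.78 CPM in CTR, 10.7, 11.4 and 12.5 CPM in NE-treated and 24.8, 23.6 and 22.8 CPM in TDE-treated libraries, and rose by 1.45 ± 0.16 on the log2 scale (adjusted p = 0.000931) against CTR. Slc16a3 measured 399, 233 and 221 CPM in CTR, 191, 193 and 203 CPM in NE-treated and 512, 512 and 504 CPM in TDE-treated libraries. The TDE-treated libraries of both genes lay above all others, and CTR replicate 1 of Slc16a3 was the highest of the remaining 6. Slc16a3 rose by 0.84 ± 0.22 (adjusted p = 0.0372) against CTR and by 1.38 ± 0.23 (adjusted p = 0.00535) against NE-treated BMDCs. Its call against CTR was lost when any library other than CTR replicate 1 was left out, while without CTR replicate 1 the log2 fold change was 1.15 (adjusted p = 5.73e-06).

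Of the 6 glycogen genes, 5 rose in TDE-treated against CTR BMDCs and 5 against NE-treated BMDCs, with synthesis and breakdown both represented. Gys1, the glycogen synthase of tissues other than liver, measured 44.9, 38.0 and 44.4 CPM in CTR, 35.3, 34.8 and 28.4 CPM in NE-treated and 222, 225 and 234 CPM in TDE-treated libraries. The CTR and NE-treated libraries lay close together, and each TDE-treated library was far above them. Its log2 fold change of 2.42 ± 0.14 against CTR (5.35-fold, adjusted p = 6.98e-05) was the highest of the 36 genes, and so was that of 2.79 ± 0.14 (6.91-fold, adjusted p = 3.68e-05) against NE-treated BMDCs. Exons of Gys1 share 310 bases with Ruvbl2 on the opposite strand, which averaged 363 reads beside 1880 of Gys1, and the strand of counting is not stated.

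Pgm1 and Pgm2 were grouped here as phosphoglucomutases, the enzymes that link glycogen to glycolysis. The symbols follow the table, in which Pgm1 is the gene at chr4:99929414-99987294 and Pgm2 the gene at chr5:64092950-64128351 of build GRCm38, names that older mouse annotation gave the other way round. Pgm1 measured 51.6, 55.6 and 51.8 CPM in CTR, 36.8, 37.3 and 42.4 CPM in NE-treated and 178, 192 and 182 CPM in TDE-treated libraries. Its groups were ordered with no overlap, NE-treated lowest and TDE-treated highest. The log2 fold change of Pgm1 was 1.79 ± 0.12 (adjusted p = 9.93e-05) against CTR and 2.24 ± 0.12 (adjusted p = 4.15e-05) against NE-treated BMDCs, while Pgm2 did not pass in either (0.88 ± 0.30, adjusted p = 0.0788, and 0.56 ± 0.30, adjusted p = 0.292).

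Gbe1, the branching enzyme, measured 7.67, 19.6 and 26.3 CPM in CTR, 23.9, 20.4 and 21.5 CPM in NE-treated and 53.8, 55.5 and 56.0 CPM in TDE-treated libraries and rose by 1.62 ± 0.37 on the log2 scale (adjusted p = 0.0208) against CTR, or by 1.25 (adjusted p = 0.000122) without CTR replicate 1. The call was lost when CTR replicate 2 or any TDE-treated library was left out. Ugp2, which makes the sugar nucleotide that glycogen synthase uses, rose from 75.6 ± 4.91 to 130.5 ± 3.38 CPM (log2 0.79 ± 0.12, adjusted p = 0.00432). Pygl, the glycogen phosphorylase of liver and leukocytes, rose from 457 ± 43.5 to 747 ± 18.2 CPM (log2 0.71 ± 0.13, adjusted p = 0.00786).

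None of the 4 pentose phosphate genes passed in any comparison fitted with all 9 libraries. G6pdx, the dehydrogenase that opens the pathway, measured 128, 213 and 212 CPM in CTR, 218, 229 and 213 CPM in NE-treated and 198, 186 and 205 CPM in TDE-treated libraries. Only CTR replicate 1 stood apart, below the other 8 libraries. The log2 difference was 0.09 ± 0.20 (adjusted p = 0.754) against CTR. Pgd, the second dehydrogenase, had a log2 difference of -0.14 ± 0.16 (adjusted p = 0.545), at 769.9 ± 138 CPM in CTR and 699.6 ± 7.01 CPM in TDE-treated BMDCs.

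Tkt and Taldo1 encode transketolase and transaldolase of the branch that does not oxidize sugar. Tkt measured 1008, 567 and 517 CPM in CTR, 559, 552 and 659.8 CPM in NE-treated and 438, 442 and 452 CPM in TDE-treated libraries, and Taldo1 measured 1445, 378 and 332 CPM in CTR, 355, 344 and 459 CPM in NE-treated and 271, 280.3 and 274 CPM in TDE-treated libraries. The TDE-treated libraries of both genes were the lowest of the 9, and CTR replicate 1 of both was the highest by a wide margin. The log2 difference from CTR was -0.65 ± 0.25 for Tkt (adjusted p = 0.107) and -1.38 ± 0.52 for Taldo1 (adjusted p = 0.102). Without CTR replicate 1 both passed as lower with smaller differences, Tkt at -0.30 (adjusted p = 0.0341) and Taldo1 at -0.38 (adjusted p = 0.0424), and against NE-treated BMDCs Tkt was at -0.42 (adjusted p = 0.00361) and Taldo1 at -0.50 (adjusted p = 0.00685) in the same fit.

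**Figure D3:**
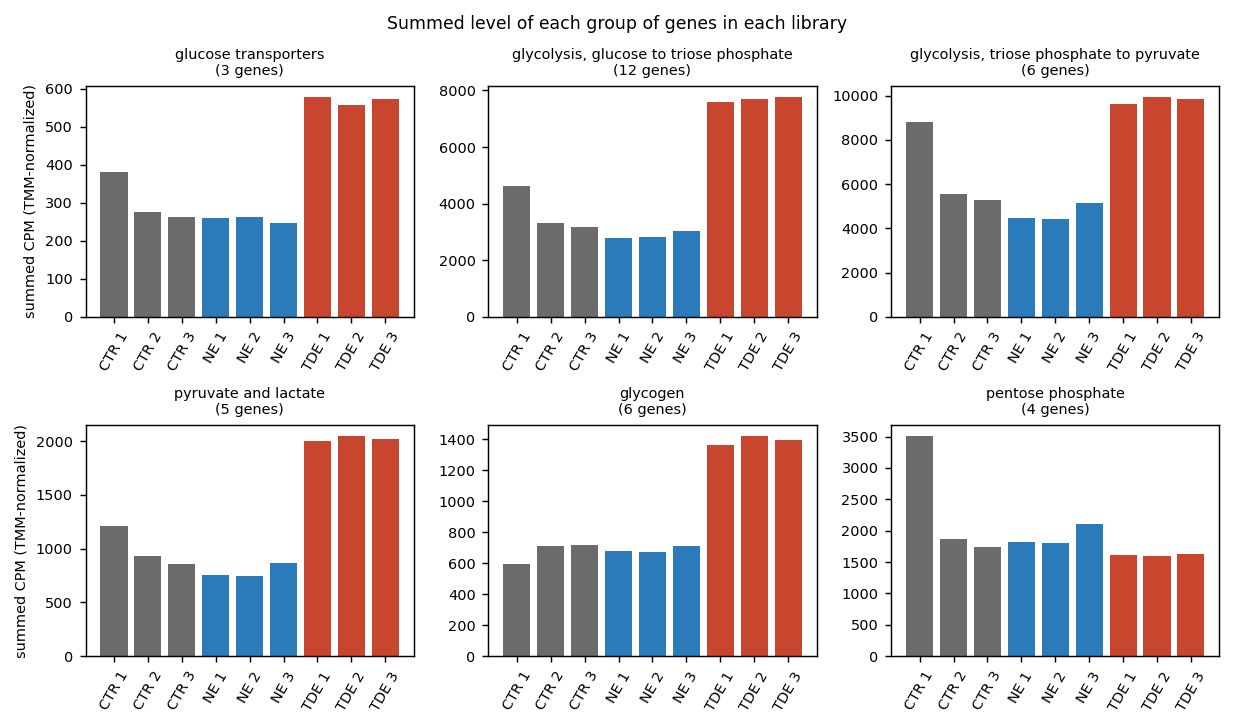
Summed TMM-normalized CPM (vertical axes, from 0) of the genes of each role in each of the 9 libraries, CTR in grey, NE-treated in blue and TDE-treated in red. The TDE-treated libraries are the highest in 5 of the 6 panels and the lowest in the pentose phosphate panel, where CTR replicate 1 is the highest at 3509 CPM.

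The levels of the genes of each role were also summed in each library, without a test. The 12 genes from hexokinase to triose phosphate isomerase summed to 3716 ± 802 CPM in CTR, 2885 ± 126 CPM in NE-treated and 7689 ± 98.9 CPM in TDE-treated BMDCs (mean ± SD, n = 3). The 6 glycogen genes summed to 673 ± 67.8, 688 ± 20.9 and 1394 ± 28.0 CPM in the same order. The 4 pentose phosphate genes, none of which was called with all 9 libraries, summed to 2370.0 ± 988 CPM in CTR, 1912 ± 173 CPM in NE-treated and 1615 ± 17.6 CPM in TDE-treated BMDCs. Of the CTR libraries, replicate 1 was at 3509 CPM and replicates 2 and 3 at 1862 and 1739 CPM. A sum over genes is led by its most abundant members, and the lower stretch of glycolysis, in which Gapdh, Eno1 and Pkm dominate, went from 6548 ± 1965 CPM in CTR to 9805 ± 165 CPM in TDE-treated BMDCs.

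Levels were compared between genes per length, as reads per kilobase of the gene length in the table, scaled by library size with TMM (RPKM). Gapdh was the most abundant of the 36 genes in each group, at 1488 ± 577, 977 ± 90.0 and 2065 ± 40.0 RPKM in CTR, NE-treated and TDE-treated BMDCs. Aldoa was second in TDE-treated BMDCs with 1928 ± 30.2 RPKM, below Gapdh by more than the spread, and in place 4 in CTR with 826 ± 202 RPKM, where Eno1 and Pkm did not differ from it beyond the spread. In the order of the 36 genes by level, Slc2a1 moved from place 26 in CTR to place 16 in TDE-treated BMDCs, with 21.9 ± 2.53 and 102 ± 4.49 RPKM. Gys1 moved from place 31 to place 22, Pfkfb3 from 15 to 10, Slc2a6 from 16 to 29 and Taldo1 from 5 to 14. The CTR means of Taldo1 and Slc2a6, and so their places, were raised by CTR replicate 1. In it Taldo1 was at 1061 RPKM, beside 278 and 244 RPKM in CTR replicates 2 and 3. Slc2a6 was at 129 RPKM beside 52.0 and 49.4 RPKM. Eno2 and Slc16a1 were the least abundant in CTR, at 1.96 ± 0.421 and 1.96 ± 0.342 RPKM, and did not differ from each other beyond their spread there. Reads of overlapping genes limit some of these levels: exons of Pfkp share 748 bases with Pitrm1, those of G6pdx 418 bases with Ikbkg and those of Pgm1 398 bases with Itgb3bp, all on the opposite strand, and those of Pkm share 767 bases with Gm49759 on the same strand.

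Because several steps have more than 1 gene, the share of each gene in the summed RPKM of its family was taken in each library. Slc2a1 made up 12.1, 24.8 and 24.0% of the 3 glucose transporters in CTR, 21.0, 21.0 and 22.1% in NE-treated libraries and 58.0, 55.6 and 56.9% in TDE-treated ones, while Slc2a6 made up 81.0, 53.2 and 53.0%, 55.5, 52.3 and 53.8% and 21.5, 21.5 and 21.0%. Slc2a6 thus held the largest share of these transporters in all CTR and NE-treated libraries, and Slc2a1 did so in all TDE-treated libraries. The TDE-treated libraries did not overlap either other group, and the exact two-sided permutation p was 0.1, the smallest that 3 libraries against 3 can give, for both genes against CTR and against NE-treated BMDCs. CTR and NE-treated libraries overlapped.

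Among the hexokinases, Hk2 went from 13.9 ± 3.92% in CTR and 14.5 ± 0.236% in NE-treated to 34.4 ± 0.692% in TDE-treated BMDCs (mean ± SD, n = 3), and Hk3 was at 58.1 ± 7.89%, 56.7 ± 0.884% and 38.5 ± 0.0696%. Hk3 remained the most abundant hexokinase per length in every library, but in reads not divided by gene length Hk2 held the largest share in the TDE-treated libraries, at 46.1, 44.6 and 45.5%, beside 29.6, 29.7 and 29.6% for Hk3. Hk1 kept a share of 28.0 ± 3.97% in CTR and 27.1 ± 0.759% in TDE-treated BMDCs. Pfkfb3 made up 74.4 ± 8.38% of the pair with Pfkfb4 in CTR libraries, 77.6 ± 1.34% in NE-treated ones and 93.1 ± 0.195% in TDE-treated ones. For Hk2, Hk3 and Pfkfb3 the TDE-treated libraries did not overlap either other group (exact permutation p = 0.1, again the smallest possible).

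Of the summed Pgm1 and Pgm2 level, Pgm1 made up 77.7, 59.96 and 59.96% in CTR, 50.3, 52.0 and 52.9% in NE-treated and 78.2, 78.0 and 76.6% in TDE-treated libraries, and Pgm2 the rest. Pgm2l1, at means of 25.3 CPM in CTR and 47.1 CPM in TDE-treated BMDCs, was not part of this pair. The TDE-treated libraries did not overlap the NE-treated ones (exact permutation p = 0.1), while CTR replicate 1 lay among the TDE-treated libraries and far from the other CTR libraries (exact permutation p = 0.2 against CTR).

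Pfkl made up 56.8 ± 11.2% of the phosphofructokinases in CTR and 54.1 ± 0.222% in TDE-treated BMDCs, where the CTR libraries lay on both sides of the TDE-treated ones (exact permutation p = 1). CTR replicate 1 was at 69.6%, above the TDE-treated libraries, and CTR replicates 2 and 3 at 51.9 and 49.0%, below them. In NE-treated BMDCs Pfkl made up 45.6 ± 3.26%, and all TDE-treated libraries lay above the NE-treated ones (exact permutation p = 0.1). Aldoa held between 96.5 and 97.9% of the summed Aldoa and Aldoc level in every library. Ldha went from 93.3 ± 1.91% of the lactate dehydrogenase subunits in CTR and 93.7 ± 0.282% in NE-treated to 97.5 ± 0.0884% in TDE-treated BMDCs, with no overlap between TDE-treated and other libraries (exact permutation p = 0.1).

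**Figure D4:**
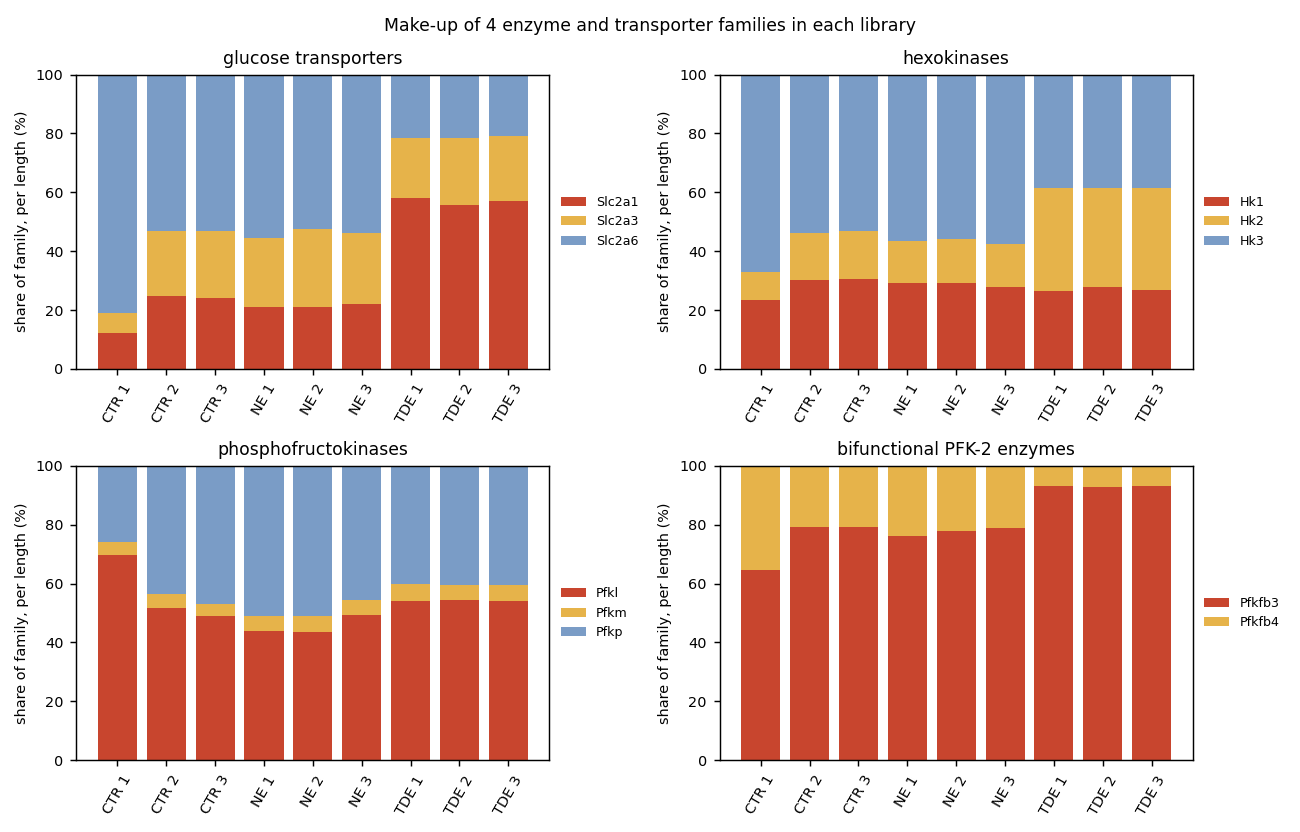
Share of each gene in the summed level per length of its family (vertical axes, percent), stacked, in each of the 9 libraries, for glucose transporters, hexokinases, phosphofructokinases and the bifunctional enzymes Pfkfb3 and Pfkfb4. The shares of Slc2a1, Hk2 and Pfkfb3 are larger in the 3 TDE-treated libraries than in the other 6, and CTR replicate 1 differs from the other CTR libraries in all 4 panels.

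CTR replicate 1 decided several of these calls. Without it, Gpi1, Pfkl, Gapdh, Pkm, Eno1, Hk3 and Pgm2 passed as higher and Slc2a6, Tkt and Taldo1 as lower in TDE-treated against CTR BMDCs, in addition to the 21 genes called with all libraries, while Pfkfb4, Eno2, Ldhb, G6pdx and Pgd did not pass. The log2 fold changes of the 36 genes then lay between -0.46 (Eno2) and 2.45 (Gys1), and their median was 0.85. Those of the 21 genes moved by between -0.37 (Gbe1) and 0.31 (Slc16a3), with Slc2a1 at 2.12 (adjusted p = 4.6e-07), Hk2 at 1.96 (adjusted p = 7.87e-07), Pdk1 at 1.65 (adjusted p = 1.55e-06) and Pgam1 at 1.30 (adjusted p = 6.69e-06). By role, 2 of 3 transporters rose and 1 fell, 11 of the 12 genes from hexokinase to triose phosphate isomerase rose, as did 5 of the 6 that follow, 4 of the 5 of pyruvate and lactate and 6 of the 6 glycogen genes, and 2 of the 4 pentose phosphate genes fell. Among the genes of the lower stretch, Gapdh moved from 0.47 to 0.83, Eno1 from 0.25 to 0.58 and Pkm from 0.48 to 0.78. Over the 36 genes, the log2 ratio of CTR replicate 1 to the other CTR libraries had a Spearman correlation of -0.46 with gene length, as a description of genes that share a library. The part of gene length in the calls was not tested beyond a fit with a length offset, in which 23 of the 36 genes rose and none fell against CTR, where 25.1% of all genes were called, 11.5% as higher and 13.6% as lower.

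**Figure D5:**
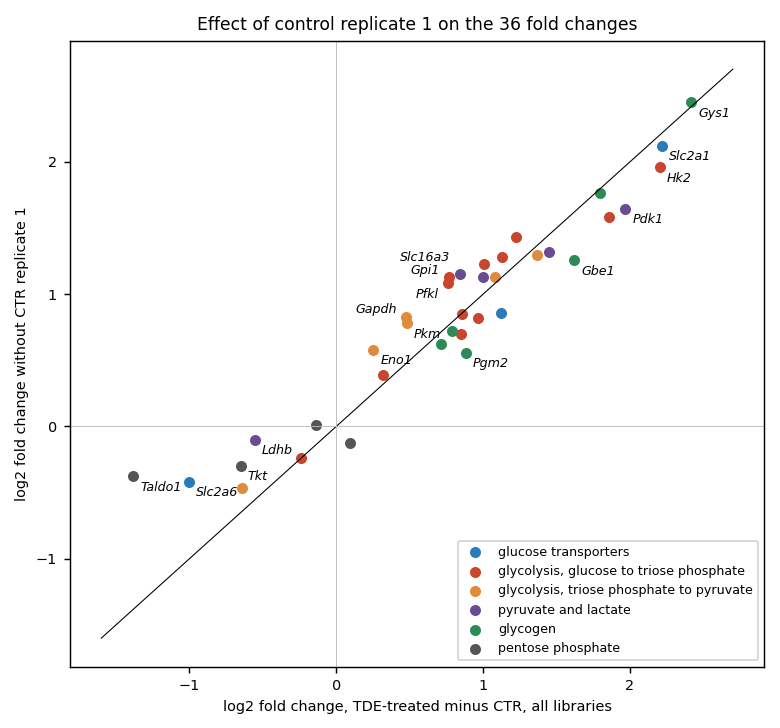
Log2 fold change of the 36 genes in TDE-treated against CTR BMDCs fitted with all 9 libraries (horizontal axis) and without CTR replicate 1 (vertical axis), colored by role, with the line of equal values. Gys1, Slc2a1 and Hk2 lie near the line at the upper right; Gpi1, Pfkl, Gapdh, Pkm and Eno1 lie above it, and Taldo1 and Slc2a6 move toward 0.

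NE-treated and CTR BMDCs were compared to see what exosomes of cells that are not cancerous did. None of the 36 genes passed edgeR's test, and 0 of all 15028 genes did (0.0%). At an unadjusted p under 0.05 there were 10 of the 36 genes and 3.24% of all genes. DESeq2 called none of the 36 and 3 of the 28781 genes it tested. Limma voom with sample weights called 3 of the 36 as lower, Pfkl, Pgk1 and Pgm1, and 18 of all 15028 genes. Without CTR replicate 1 edgeR called none of the 36 and 0.0196% of all genes. The NE-treated libraries lay below all CTR libraries for 10 of the 36 genes and above them for 2, where 3.67% and 4.05% of all genes did so. Pgk1 was at 583, 595 and 725 CPM in NE-treated and 947, 865 and 829 CPM in CTR BMDCs, a log2 difference of -0.47 ± 0.14 (unadjusted p = 0.00961, adjusted p = 0.659). For Pgm1 it was -0.45 ± 0.12 (unadjusted p = 0.00424, adjusted p = 0.659). Slc16a1, with 10.7, 11.4 and 12.5 CPM in NE-treated and 7.1, 10.1 and 8.78 CPM in CTR BMDCs, was one of the 2 on the higher side (log2 0.41 ± 0.16, adjusted p = 0.659), and the other was G6pdx.

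A further 84 genes of these pathways were listed by name, of which 58 could be tested. In TDE-treated against CTR BMDCs, 6 of the 58 rose and 4 fell, and their median log2 fold change was 0.07. These were 17.2% of the 58, near the 16.9% called among all genes. Without CTR replicate 1, 13 rose and 9 fell, 37.9% of the 58 beside 34.4% of all genes. Against NE-treated BMDCs 8 of the 58 rose and 3 fell, where 13.9% of all genes were called, and in NE-treated against CTR BMDCs none passed. By list, 1 of 15 other glycolysis genes rose and 1 fell against CTR, none of 11 genes of pyruvate oxidation passed, 2 of 20 other glycogen genes rose and 1 fell, 1 of 8 other pentose phosphate genes rose and 2 fell, and 2 of 4 gluconeogenesis genes rose. With that library left out the counts in the same order were 4 and 2, 1 and 2, 3 and 2, 1 and 3, and 4 and 0. Those with a mean of at least 5 CPM, 8 in number, are named. Ppp1r3b, a subunit that brings protein phosphatase to glycogen, rose from 19.9 ± 3.58 CPM in CTR to 88.9 ± 2.03 CPM in TDE-treated BMDCs (log2 2.16 ± 0.16, adjusted p = 0.000143). Epm2a, the glycogen phosphatase laforin, rose by 1.30 ± 0.38 (adjusted p = 0.0487), from 2.15, 6.19 and 6.91 CPM in CTR libraries, of which CTR replicate 1 was the lowest. Slc37a4, which carries phosphorylated glucose into the endoplasmic reticulum, rose by 0.57 ± 0.13 (adjusted p = 0.0211).

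Among the named genes that fell, Adpgk, the glucokinase that uses ADP, was at 141 ± 53.0 CPM in CTR and 67.7 ± 0.544 CPM in TDE-treated BMDCs (log2 -1.06 ± 0.27, adjusted p = 0.0318). Its CTR replicate 1, at 79.8 CPM, lay near the TDE-treated libraries and far from the other CTR libraries at 169.8 and 173 CPM. Rpia, the ribose phosphate isomerase, fell by 2.53-fold (log2 -1.34 ± 0.29, adjusted p = 0.0166), and Rbks, which phosphorylates ribose, by 2.36-fold (log2 -1.24 ± 0.34, adjusted p = 0.0409). Prps2, which makes the ribose donor of nucleotide synthesis, rose by 0.70 ± 0.13 (adjusted p = 0.00866), and Slc2a9, a transporter of urate and sugars, by 1.03 ± 0.14 (adjusted p = 0.00248). For Rpia and Rbks CTR replicate 1 was the highest library, at 57.6 and 14.7 CPM. When it was left out these 8 genes were still called, with log2 fold changes of -0.93 (adjusted p = 0.00093) for Rpia, -0.78 (adjusted p = 0.0151) for Rbks, 0.94 (adjusted p = 0.00222) for Epm2a and -1.35 (adjusted p = 4.2e-06) for Adpgk.

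Markers of the cell types that such cultures hold moved with the groups. The summed level of 12 dendritic cell markers was 4937 to 14670.2 CPM in CTR, 4709 to 5873 CPM in NE-treated and 2661 to 2826 CPM in TDE-treated libraries, with 6 of 11 tested markers lower against CTR. That of 12 neutrophil markers was 7586 to 28697 CPM, 7996 to 11262 CPM and 3696 to 3993 CPM, with 8 of 12 lower. That of 10 markers of eosinophils, basophils and mast cells was 689.9 to 1901 CPM, 713 to 809.5 CPM and 130.1 to 157 CPM, with 10 of 10 lower. Macrophage markers summed to 7061 to 13650.5 CPM, 7325 to 7899 CPM and 6300.3 to 6693 CPM, with 2 of 12 lower and 1 higher. This sum joins changes in opposite directions. The higher marker was Adgre1, with means of 378 CPM in CTR and 2229 CPM in TDE-treated BMDCs. The lower ones were Apoe, at 4111 and 187 CPM, and C1qb, at 616 and 159 CPM. Among all genes tested, 9.34% were called lower and 7.57% higher against CTR. Cd74 led the dendritic cell sum, at a mean of 4455 CPM in CTR, and S100a9 the neutrophil sum, at 6316 CPM. The 6 dendritic cell markers called lower against CTR were H2-Aa, H2-Ab1, H2-Eb1, Cd74, Ccr7 and Cd86. Itgax, Ciita, Flt3, Zbtb46 and Cd80 did not pass, with Flt3 at a log2 difference of 0.02 (adjusted p = 0.934). Against NE-treated BMDCs, 3 of the 11 were called lower, where 7.21% of all genes were. The upper end of each CTR range is CTR replicate 1. Without it, 9 of 11 dendritic cell, 10 of 12 neutrophil, 10 of 10 eosinophil, basophil and mast cell and 8 of 12 macrophage markers were lower, and 1 neutrophil and 2 macrophage markers were higher. In that fit 18.0% of all genes tested were called lower and 16.4% higher.

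Of the remaining lists, 4 of 4 tested lymphocyte markers were lower in TDE-treated against CTR BMDCs, while of 7 markers of cycling cells 1 was higher and 2 were lower. Fibroblast markers were near the bottom of the range, at 6.46 to 7.61 CPM in CTR, 6.29 to 7.71 CPM in NE-treated and 10.8 to 11.8 CPM in TDE-treated libraries, with 2 of 6 higher. In the fit that omits CTR replicate 1, 4 of 4 lymphocyte markers were lower, 4 of 7 markers of cycling cells were higher and 2 lower, and 2 of 6 fibroblast markers were higher and 1 lower. The tested erythroid marker did not pass with or without it, and no marker of any list was at 0 in every library. The part of these markers in the differences of the glucose genes was not tested.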

How the data were processed

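RNA sequencing of 9 libraries, 3 in each group of BMDCs, was analysed from a table of reads per gene. The authors deposited estimated counts (expected counts) without normalization, and 17 of the 36 genes had a fractional value. Per the labels and the study's methods, reads were aligned with TopHat2 2.1.1; the counting program, its use of strand and the genome build are not given in the sources used here. The table also holds means per group, a gene length and pathway terms; of these the gene length alone was used.

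Estimated counts were rounded and tested in 1 fit over all 9 libraries with the quasi-likelihood F test of edgeR 4.0.16 (R 4.3.3), after filterByExpr, which kept 15028 genes, and TMM normalization. P-values were adjusted by Benjamini-Hochberg over all tested genes, at a threshold of 0.05 whatever the fold. Standard errors were obtained by dividing the absolute log2 fold change by the root of F. Library totals of 17469782 to 21092943 estimated reads put 3 reads at 0.135 to 0.190 CPM. A ± on a level or a share is the SD between 3 libraries. A ± on a log2 fold change is a standard error of the fit over all 9 libraries, in which the groups share 1 estimate of the spread. CTR replicate 1 therefore also enters the standard errors of TDE-treated against NE-treated BMDCs. Shares within families were compared with an exact two-sided permutation test. Positions and overlaps came from GENCODE vM21, and copies at least 95% identical over 200 bases from a search of its transcripts. Code was tested on simulated data. Python 3.11.15, pandas 2.3.3 and scipy 1.17.1 served for tables.

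All 36 genes are named. Of the other genes of these pathways, the 8 with the largest log2 fold change among those called against CTR with a mean of at least 5 CPM are named. The members, lists and motifs were chosen with earlier results of these data known. Alternatives were DESeq2 1.42.0, limma voom (limma 3.58.1) with sample quality weights, other scalings and filters, the 6 libraries of a pair, a replicate block, shares without gene length, and each library left out; a gene length offset was added after the data were seen.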

Additional observations from a re-analysis of the deposited data

How the results depend on the processing

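The sign of the log2 fold change was kept under all 18 alternatives by each of the 21 genes called in TDE-treated against CTR BMDCs and by each of the 24 called against NE-treated BMDCs. Of these, 15 stayed called against CTR under every alternative (Slc2a1, Hk2, Pfkm, Pfkp, Pfkfb3, Aldoa, Aldoc, Pgk1, Pgam1, Ldha, Slc16a1, Pdk1, Pgm1, Gys1 and Ugp2), and 17 against NE-treated BMDCs (Slc2a1, Hk2, Gpi1, Pfkl, Pfkm, Pfkfb3, Aldoa, Aldoc, Tpi1, Pgk1, Pgam1, Ldha, Slc16a1, Slc16a3, Pdk1, Pgm1 and Gys1). With 1 library left out, between 18 and 31 of the 36 genes were called against CTR, beside 1103 to 5263 of all genes. Against NE-treated BMDCs between 19 and 31 were called, beside 970 to 6223 of all genes. The highest counts were those without CTR replicate 1 in both. Limma voom called 33 of the 36 against CTR, 28 higher and 5 lower, beside 7886 of all 15028 genes. In NE-treated against CTR BMDCs it called 3 of the 36, beside 18 of all genes.

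Over all genes, the 2541 called in TDE-treated against CTR BMDCs became 7886 with voom, 1152 with the 6 libraries of the pair, 1285 with the replicate block and 1103 to 5263 with 1 library left out. The 2095 called against NE-treated BMDCs became 8311, 6072, 1175 and 970 to 6223 in the same order, and 3185 with the length offset. In NE-treated against CTR BMDCs the count of 0 became 3 with DESeq2, 18 with voom and 0 to 3 with 1 library left out. The 10 other pathway genes called against CTR became 34 with voom, 6 with no filter, 4 with the pair, 4 with the block, 18 with the length offset and 4 to 22 with 1 library left out; the 11 called against NE-treated BMDCs became 36, 7, 24 and 6 with the first 4 of these, and 4 to 26 with 1 library left out. The cause of these changes was not tested.

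The labels do not say whether the replicate numbers pair the samples. Deviations of same-numbered libraries from their group means correlated by -0.03, -0.06 and 0.07 in TDE-treated and CTR BMDCs. The values were 0.03, -0.04 and -0.07 in TDE-treated and NE-treated, and -0.37, 0.18 and -0.59 in NE-treated and CTR BMDCs. With 3 libraries a group and CTR replicate 1 standing apart, these correlations cannot decide whether a mouse, culture or batch was shared. With the replicate number as a block, 20 of the 36 genes were called against CTR and 20 against NE-treated BMDCs, all higher. Slc16a3 was then not called against CTR (adjusted p = 0.0725), nor Gapdh, Pkm, Gbe1 and Pygl against NE-treated BMDCs (adjusted p from 0.0582 to 0.0965).

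Scaling by library totals alone moved the median log2 difference of all genes in NE-treated against CTR BMDCs to 0.12. Differences in shares taken without dividing by gene length kept their direction, but Hk2 in place of Hk3 then held the largest share of the hexokinases in TDE-treated libraries, and Pfkl in place of Pfkp that of the phosphofructokinases in 2 NE-treated libraries. With 3 libraries a group, 1 of which stands apart, a difference that did not pass is not shown to be absent, and the design cannot reach an exact p below 0.1 for shares. Genes with few reads, such as Eno2 with 51 to 108 per library, are the least certain.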
